A study of Mus musculus with 6 samples.

Results

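The gasdermin family was examined in tongue RNA from Aim2-deficient and wild type mice that had received the carcinogen 4NQO. The members are the rows of the deposited expression table named Gsdma, Gsdma2, Gsdma3, Gsdmc, Gsdmc2, Gsdmc3, Gsdmc4, Gsdmd and Dfna5, which are 9 of its 35275 genes. The members were found by these symbols. Dfna5 is the table's older symbol for gasdermin E, which GENCODE M21 calls Gsdme.

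Gasdermins are pore-forming proteins that lie inactive in the cytoplasm until a protease separates the toxic amino-terminal domain from the carboxy-terminal domain that holds it back. The freed domain inserts into the plasma membrane, lets small cytokines such as interleukin-1 beta out and can end in pyroptosis, a lytic form of cell death. Aim2 is a sensor of cytosolic DNA whose inflammasome activates caspase-1, and caspase-1 cleaves gasdermin D. Gasdermin A and gasdermin C are known mainly from epithelia, and gasdermin E can be cut by granzyme B of cytotoxic lymphocytes.

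Bulk RNA sequencing was done on 3 libraries from Aim2 knockout mice (Aim2 KO) and 3 libraries from wild type mice, each numbered 1 to 3. All 6 came from tongue tissue of mice that drank 4NQO (4-nitroquinoline 1-oxide) at 100 µg/ml for 20 weeks, and no group without the carcinogen was analysed here. 4NQO damages DNA and is used to produce squamous lesions in the mouth. The labels give neither the ages, sexes or strain of the mice nor the exons that the knockout lacks. Whether the 3 libraries of a genotype stem from different mice is not said. The p-values therefore reflect library-to-library spread, which may be technical. All library names of a genotype also share a number whose meaning is not given, so what it stands for cannot be told apart from genotype.

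The values were FPKM (fragments per kilobase of gene, scaled to the depth of the library). They take gene length into account, so levels can be compared between genes as far as the deposited lengths hold. The depth recovered from the FPKM values was 21959204 to 24994421 reads in Aim2 KO libraries and 24273320 to 25369400 reads in wild type libraries. The targeted gene, Aim2, had 3, 4 and 10 reads in the Aim2 KO libraries, against 14, 25 and 30 in those of wild type. The tongue's own markers were abundant, with keratin 13 (Krt13) at 14631 to 15764 FPKM in Aim2 KO tongues and 14017 to 16390 FPKM in wild type. Aim2 KO replicate 1 stood apart in tissue makeup. Its summed skeletal muscle markers reached 7896 FPKM, against 13412 to 15888 FPKM in the other 5 libraries, and its endothelial markers 18.2 FPKM against 26.4 to 50.8 FPKM. In bulk tissue, fewer cells of a type and less RNA per cell cannot be told apart.

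The family was dominated by its epithelial members. Gsdma averaged 69.6 FPKM and Gsdmc 57.1 FPKM over all 6 libraries, followed by Gsdmd at 2.03 FPKM and Dfna5 at 1.53 FPKM. Together Gsdma and Gsdmc made up 95.7% to 97.8% of the summed gasdermin FPKM of an Aim2 KO library and 96.6% to 98.2% of that of a wild type library. Gsdma ranked 817 to 1231 among all genes by FPKM in Aim2 KO libraries and 700 to 1023 in wild type libraries. Gsdmd ranked 9853 to 10230 in Aim2 KO and 10802 to 11377 in wild type. Neighbours in this order were not cleanly apart. Gsdma exceeded Gsdmc in 5 of 6 libraries, Aim2 KO replicate 3 being the exception, and Gsdmd exceeded Dfna5 in 5 of 6, wild type replicate 3 being the exception. The order of Gsdmd and Dfna5 depends on their deposited lengths, 1776 and 4383 bases. By reads over all libraries Dfna5 had more, 967 against 514. The Dfna5 transcript with the longest coding region in GENCODE M21 has only 2502 bases, and the Gsdmd length matches no coding transcript there.

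The other 5 members were at the limit of detection. Gsdma3 and Gsdmc3 were listed at 0 in all 6 libraries. A count of 0 allows up to 3 reads, which is 0.0756 to 0.0861 FPKM per Aim2 KO library and 0.0745 to 0.0779 FPKM per wild type library for Gsdma3. For Gsdmc3 the same limit is 0.0551 to 0.0627 FPKM in Aim2 KO tongues and 0.0543 to 0.0567 FPKM in wild type. Gsdmc4 had 1 read in wild type replicate 3 and 0 reads in each other library. Such limits and all intervals given on reads cover counting error only.

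**Figure D1:**
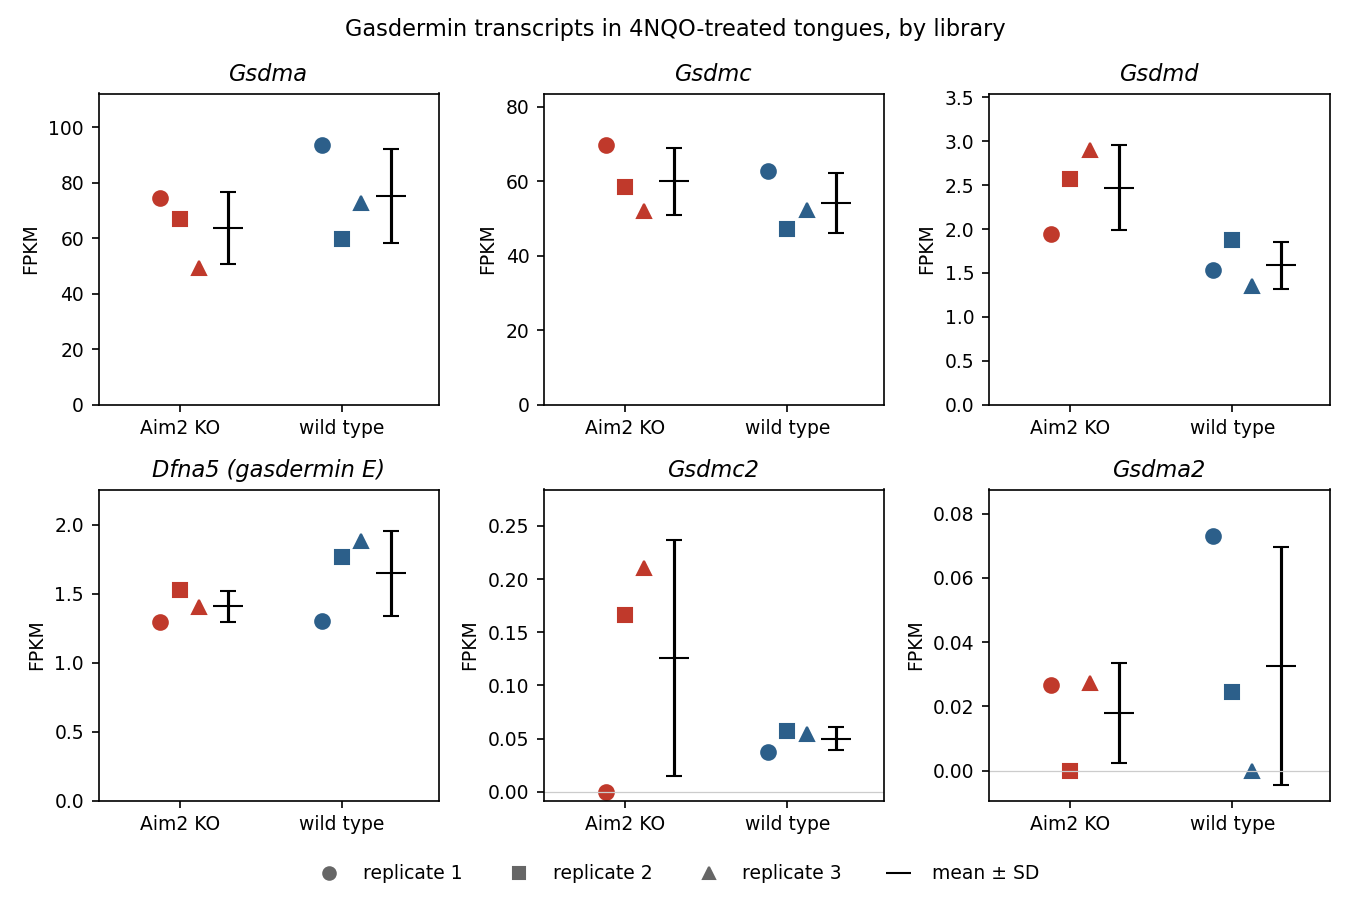
FPKM of the 6 gasdermins with the most reads (vertical axes, each with its own scale) in Aim2 KO and wild type libraries, with 1 point per library, marker shapes for the replicate number and bars for mean ± SD. For Gsdmd the lowest Aim2 KO library, at 1.95 FPKM, lies just above the highest wild type library, at 1.88 FPKM, while the groups overlap for the other 5 genes.

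Gasdermin D, the pore former cut by caspase-1 and by caspase-11 (the product of mouse Casp4), is encoded on chromosome 15 from 75862339 to 75867404 on the plus strand. Gsdmd had 1.95, 2.57 and 2.90 FPKM in Aim2 KO replicates 1 to 3, against 1.53, 1.88 and 1.35 FPKM in wild type replicates 1 to 3. All 3 Aim2 KO libraries therefore lay above all 3 wild type libraries, with replicate 1 of Aim2 KO close to replicate 2 of wild type. The means were 2.47 ± 0.482 FPKM in Aim2 KO tongues and 1.59 ± 0.267 FPKM in wild type (SD, n = 3 each), a ratio of 1.56.

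These Gsdmd levels rested on 78, 114 and 113 reads in Aim2 KO and on 67, 81 and 61 reads in wild type. The pooled read rate was 1.56 times as high in Aim2 KO, with an exact 95% binomial interval of 1.30 to 1.87. The log2 difference (mean log2(FPKM + 1) of Aim2 KO less that of wild type, a scale that shrinks differences of low genes) was 0.42 with a limma 95% interval of 0.06 to 0.78. It did not pass a Benjamini-Hochberg threshold of 0.05 over the 12144 genes tested (limma adjusted p = 0.9998, unadjusted p = 0.0286). By its unadjusted p it ranked 180 among these genes. An exact two-sided permutation test over the libraries gave p = 0.1, the smallest that 3 against 3 allows.

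Of the 9 members 4 had the mean of at least 1 FPKM that the test across genes required, and 0 of these 4 passed the threshold, against 0.00823% of all genes tested. At an unadjusted limma p under 0.05 there was 1 of 4, Gsdmd, against a background of 2.5% in either direction and 1.93% upward. The groups did not overlap for 1 of 4, again Gsdmd, against 6.46% of all genes, made up of 4.98% higher and 1.48% lower in Aim2 KO. The median log2 difference of the 4 was 0.01, and that of all genes tested was 0.02.

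Gasdermin E, which can turn an apoptotic death into a lytic one, is encoded by Dfna5 on the minus strand of chromosome 6, from 50189369 to 50263862. Dfna5 had 1.30, 1.52 and 1.40 FPKM in Aim2 KO replicates 1 to 3, against 1.30, 1.77 and 1.88 FPKM in wild type replicates 1 to 3. The lowest library of each group was at the same level, and both other wild type libraries lay above all Aim2 KO libraries. The means were 1.41 ± 0.114 FPKM in Aim2 KO tongues and 1.65 ± 0.308 FPKM in wild type (SD, n = 3 each). The log2 difference was -0.13, with a limma 95% interval of -0.46 to 0.20 (adjusted p = 0.9998).

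Gsdmd and Dfna5, similar in FPKM by the deposited lengths, can be set against each other. The Gsdmd level divided by the Dfna5 level was 1.50, 1.68 and 2.07 in Aim2 KO, against 1.18, 1.06 and 0.720 in wild type. This ratio was computed after the levels were seen and is given without a test.

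Gasdermin A, the most abundant member, lies on chromosome 11 from 98664351 to 98677708 on the plus strand. Gsdma had 74.7, 67.0 and 49.5 FPKM in Aim2 KO replicates 1 to 3, against 93.5, 59.9 and 72.8 FPKM in wild type replicates 1 to 3. The groups overlapped, with the highest library in wild type and the lowest in Aim2 KO. The means were 63.7 ± 12.9 FPKM in Aim2 KO tongues and 75.4 ± 17.0 FPKM in wild type (SD, n = 3 each), and the log2 difference of -0.24 had a limma 95% interval of -0.71 to 0.24 (adjusted p = 0.9998). With 2961 to 4587 reads per Aim2 KO library and 3962 to 6267 per wild type library, counting error was small beside this spread.

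Gasdermin C, which caspase-8 is reported to cut in human cancer cells, is encoded on the minus strand of chromosome 15, from 63775968 to 63808759. Gsdmc had 69.7, 58.4 and 52.0 FPKM in Aim2 KO replicates 1 to 3, against 62.8, 47.1 and 52.3 FPKM in wild type replicates 1 to 3. The groups overlapped, the highest library being an Aim2 KO one and the lowest a wild type one. The means were 60.0 ± 8.95 FPKM in Aim2 KO tongues and 54.1 ± 8.02 FPKM in wild type (SD, n = 3 each), with a log2 difference of 0.15 and a limma 95% interval of -0.21 to 0.50 (adjusted p = 0.9998).

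The levels of both abundant members can also be set against each other. Gsdma divided by Gsdmc was 1.07, 1.15 and 0.952 in Aim2 KO, against 1.49, 1.27 and 1.39 in wild type, so that the groups did not overlap. This ratio, too, was computed after the levels were seen and is given without a test.

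Gsdma and Gsdmc each have close copies beside them, and the copies were almost silent. Gsdma3, Gsdma2 and Gsdma follow each other on chromosome 11, and their coding regions in GENCODE M21 are 89.0% to 90.9% identical. Over all libraries Gsdma had 27381 reads, Gsdma2 had 6 and Gsdma3 had 0. Gsdmc, Gsdmc2, Gsdmc3 and Gsdmc4 lie within 136 kb of chromosome 15. Gsdmc2, Gsdmc3 and Gsdmc4 are 93.8% to 97.1% identical to each other and 87.0% to 87.5% identical to Gsdmc. Gsdmc had 19689 reads over all libraries, Gsdmc2 had 27, Gsdmc3 had 0 and Gsdmc4 had 1.

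The first 90 coding bases from GENCODE M21 (GRCm38) show how near these copies are, since a read from one could be counted for another. Each is written 5′ to 3′ from the start codon, and capitals mark bases that differ from Gsdma or, in the C group, from Gsdmc.
Gsdma: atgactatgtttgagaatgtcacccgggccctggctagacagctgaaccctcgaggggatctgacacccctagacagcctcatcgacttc
Gsdma2: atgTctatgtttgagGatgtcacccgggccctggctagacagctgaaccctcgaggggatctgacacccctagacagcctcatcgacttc
Gsdma3: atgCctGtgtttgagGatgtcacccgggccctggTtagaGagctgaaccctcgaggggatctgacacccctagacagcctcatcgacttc
Gsdmc: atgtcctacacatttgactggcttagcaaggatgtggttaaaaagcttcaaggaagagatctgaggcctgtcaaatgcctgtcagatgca
Gsdmc2: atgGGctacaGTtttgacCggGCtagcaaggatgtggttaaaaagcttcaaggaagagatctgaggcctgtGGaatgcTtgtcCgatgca
Gsdmc3: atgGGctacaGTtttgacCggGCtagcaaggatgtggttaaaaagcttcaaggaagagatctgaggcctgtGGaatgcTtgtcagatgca
Gsdmc4: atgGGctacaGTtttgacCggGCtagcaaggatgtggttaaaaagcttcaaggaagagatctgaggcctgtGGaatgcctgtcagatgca

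In this stretch Gsdma2 differs from Gsdma at 2 bases and Gsdma3 at 5. Gsdmc2, Gsdmc3 and Gsdmc4 differ from Gsdmc at 11, 10 and 9 bases. Over whole transcripts, 8.26% of the 50-base windows of Gsdma and 16.4% of those of Gsdmc also occur in another gasdermin. For Gsdmc2, Gsdmc3 and Gsdmc4 this share was 47.7%, 46.6% and 38.6%. Gsdma2 and Gsdma3 had 10.1% and 5.25%. Gsdmd and Dfna5 shared 0 windows with any other gene. How reads that match several copies were counted is not given in the sources used here, so the low counts of the copies are uncertain.

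**Figure D2:**
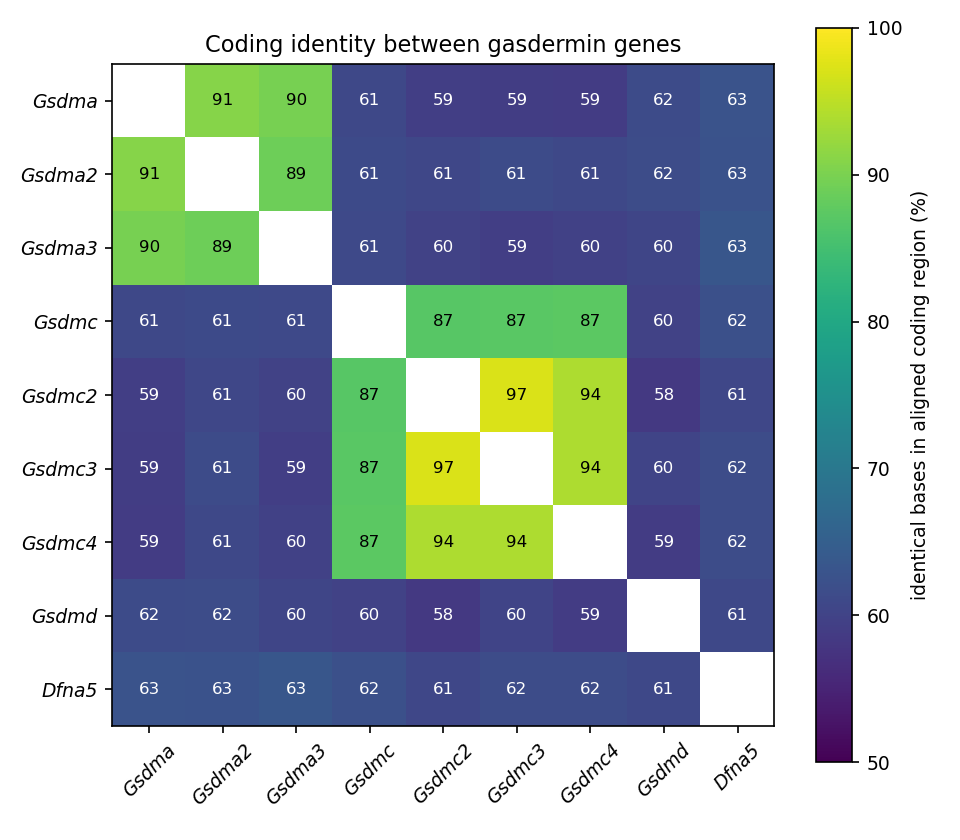
Share of identical bases (percent, colour and number) in the aligned coding regions of each pair of the 9 gasdermin genes, from GENCODE M21. The Gsdma copies and the Gsdmc copies form separate blocks, at 89.0% to 90.9% and 87.0% to 97.1%, whereas Gsdmd and Dfna5 have no close relative.

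Among the copies only Gsdmc2 gave more than a few reads. It had 0, 9 and 10 reads in Aim2 KO replicates 1 to 3, against 2, 3 and 3 reads in wild type replicates 1 to 3, or 0.126 ± 0.111 FPKM against 0.0498 ± 0.0106 FPKM (SD, n = 3 each). The highest libraries and the lowest one were all Aim2 KO, so the groups overlapped. The pooled read rate was 2.54 times as high in Aim2 KO, with an exact 95% binomial interval of 1.06 to 6.70, and an exact two-sided permutation test over libraries gave p = 0.4. Gsdma2 had 1, 0 and 1 reads in Aim2 KO and 3, 1 and 0 reads in wild type. Differences of these copies between the genotypes were not detectable at this depth beyond the spread between libraries.

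The nearest tested genes on each side of the gasdermin loci lay at very different distances. Ormdl3, a regulator of sphingolipid synthesis 39.0 kb to the left of the Gsdma cluster, had 25.5 FPKM in Aim2 KO tongues and 25.3 FPKM in wild type, and Psmd3, a proteasome subunit 4.85 kb to the right, had 63.3 and 60.4 FPKM in the same groups. Fam49b, 16.8 kb from the Gsdmc cluster, had 12.1, 12.9 and 12.9 FPKM in Aim2 KO, against 10.3, 10.5 and 10.8 FPKM in wild type. Its groups did not overlap, and the log2 difference was 0.24 (limma unadjusted p = 0.0298, adjusted p = 0.9998). Zc3h3 and Mroh6, the nearest tested genes left and right of Gsdmd, had log2 differences of 0.07 and -0.16, neither past the threshold. Mafa, which encodes a transcription factor and lies 114 kb from Gsdmd, had 9.45, 10.7 and 11.1 FPKM in Aim2 KO, against 13.3, 16.0 and 15.1 FPKM in wild type. Its groups did not overlap either (log2 difference -0.47, limma unadjusted p = 0.00343, adjusted p = 0.9998). Fam84b, 2922 kb to the left of the Gsdmc cluster, was above wild type in every Aim2 KO library, as Fam49b was, at a log2 difference of 0.17. Over all genes tested the groups did not overlap for 6.46%, made up of 4.98% higher and 1.48% lower in Aim2 KO. The groups overlapped for Grb7, Med24, Asap1, Naprt1, Osbpl3 and Cycs, all within 299 kb of their locus, and for Myc at 1786 kb and Ccdc126 and Fam221a at 848 and 799 kb. They also overlapped for Ormdl3, Psmd3, Zc3h3, Mroh6 and Mpp6. Dfna5 shares part of its span with Mpp6 on the opposite strand, but 0 of its exon bases in GENCODE M21 lie in an exon of another gene.

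Proteases that can cut gasdermins were examined as a list of 12 genes, of which 8 were tested. The log2 difference was above 0 for all 8, against 57.2% of all genes tested, with a median of 0.19. None passed the threshold (0 of 8), and the groups did not overlap for 3 of 8, all above wild type, against 4.98% of all genes. Casp1, the protease of the Aim2 inflammasome, had 40.1, 40.8 and 37.8 FPKM in Aim2 KO, against 36.6, 29.0 and 29.0 FPKM in wild type (log2 difference 0.32, limma unadjusted p = 0.0282, adjusted p = 0.9998). Every Aim2 KO library lay above every wild type library for Casp1, though the lowest of them by little.

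Casp6, an executioner caspase, had 7.44, 7.72 and 6.04 FPKM in Aim2 KO, against 6.01, 5.38 and 5.58 FPKM in wild type. Here Aim2 KO replicate 3 and wild type replicate 1 almost met. Casp4 and Casp8 had log2 differences of 0.13 and 0.06 with overlapping groups. Gzmb, which encodes granzyme B of cytotoxic lymphocytes, was under the mean of 1 FPKM and not tested. It had 1.22, 0.875 and 1.38 FPKM in Aim2 KO, against 0.172, 0.0581 and 0.278 FPKM in wild type, on 39, 31 and 43 reads against 6, 2 and 10. The groups did not overlap. Gzmb was picked after its values were seen, so no test is given. Summed markers of T and cytotoxic cells, a list that holds Gzmb, were 7.01 to 14.1 FPKM in Aim2 KO tongues and 2.50 to 4.04 FPKM in wild type, with 0 of 9 at 0 in all libraries, and their part in the Gzmb values was not tested.

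Sensors that start inflammasomes were mostly too scarce to be tested. Of 15 listed genes 3 were tested and 0 passed, and the median log2 difference was 0.02. Pycard, the adaptor between sensors and caspase-1, had 66.7, 50.9 and 54.0 FPKM in Aim2 KO, against 64.7, 57.5 and 46.9 FPKM in wild type. Nlrp3, another of the listed sensors, had 0.188, 0.159 and 0.170 FPKM in Aim2 KO, against 0.162, 0.0615 and 0.0784 FPKM in wild type. These Nlrp3 values rested on 17, 16 and 15 reads in Aim2 KO and 16, 6 and 8 in wild type. The Pycard groups overlapped, and the Nlrp3 groups overlapped by wild type replicate 1.

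Genes of proteins released through the pore or on lysis (called cargo here) and of membrane rupture and repair were spread around 0. Of the 9 cargo genes 7 were tested, with 4 log2 differences above 0, a median of 0.02 and 0 past the threshold. Il36g and Il36a were not found by symbol, so their levels are unknown. Over all genes tested 57.2% were above 0, with a median of 0.02. Il1b had 6.05, 2.07 and 3.02 FPKM in Aim2 KO, against 2.79, 0.851 and 1.83 FPKM in wild type, Il1a had 8.52, 5.82 and 3.71 FPKM against 8.37, 3.28 and 6.85 FPKM, and Il18 had 13.0, 28.4 and 24.8 FPKM against 25.5, 21.8 and 23.6 FPKM. The groups overlapped for each of these cytokines, and Aim2 KO replicate 1 was the highest library for Il1b and the lowest for Il18. Hmgb1, a nuclear protein released by lysed cells, had 79.3, 76.7 and 74.6 FPKM in Aim2 KO, against 65.4, 71.7 and 66.3 FPKM in wild type, without overlap. It was the 1 of 7 cargo genes above wild type in every Aim2 KO library, against 4.98% of all genes tested. Of 19 rupture and repair genes 17 were tested, 11 of them with log2 differences above 0, against the same 57.2%. Their median was 0.02 and 0 passed. Chmp1b of this list was not found by symbol. Ninj1, which ruptures the membrane after the pores open, had 19.6, 20.9 and 21.5 FPKM in Aim2 KO tongues and 18.5, 20.9 and 20.1 FPKM in wild type.

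Listed regulators of gasdermins and other lytic death genes were examined in the same way. Of 19 regulators 17 were tested, with 12 log2 differences above 0, a median of 0.05 and 0 past the threshold. Over all genes tested 57.2% were above 0, with a median of 0.02. In every Aim2 KO library 1 of the 17 lay above wild type, against 4.98% of all genes tested. Irf1, an interferon-induced transcription factor, had 9.55, 7.30 and 9.50 FPKM in Aim2 KO, against 5.29, 4.88 and 3.45 FPKM in wild type, without overlap (log2 difference 0.83, limma unadjusted p = 0.00125, adjusted p = 0.727). Irf2, a known activator of Gsdmd transcription, had 6.39, 7.78 and 7.48 FPKM in Aim2 KO tongues and 6.14, 6.98 and 7.47 FPKM in wild type, with overlap. Of 14 other lytic death genes found by symbol 13 were tested, 10 with log2 differences above 0, a median of 0.09 and 0 past the threshold. In every Aim2 KO library 2 of the 13 lay above wild type, against the same 4.98%. Zbp1, among the 10, was tested only through Aim2 KO, with means of 1.63 FPKM there and 0.690 FPKM in wild type. Mlkl, the pore former of necroptosis, had 4.28, 5.63 and 5.25 FPKM in Aim2 KO, against 3.45, 2.61 and 2.77 FPKM in wild type, without overlap (log2 difference 0.62, limma adjusted p = 0.927). Bid, a link between caspase-8 and mitochondria, had 4.01, 2.47 and 2.55 FPKM in Aim2 KO, against 2.16, 2.08 and 1.96 FPKM in wild type, also without overlap. With array quality weights 2 genes of the pathway lists passed, Irf1 and Mlkl (limma adjusted p = 0.0389 and 0.0478), against 0 in the test as reported. In that weighted fit 68 of all 12144 genes passed, or 0.56%. Those weights were 4.18 for Aim2 KO replicate 3 and 0.241 for Aim2 KO replicate 1.

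**Figure D3:**
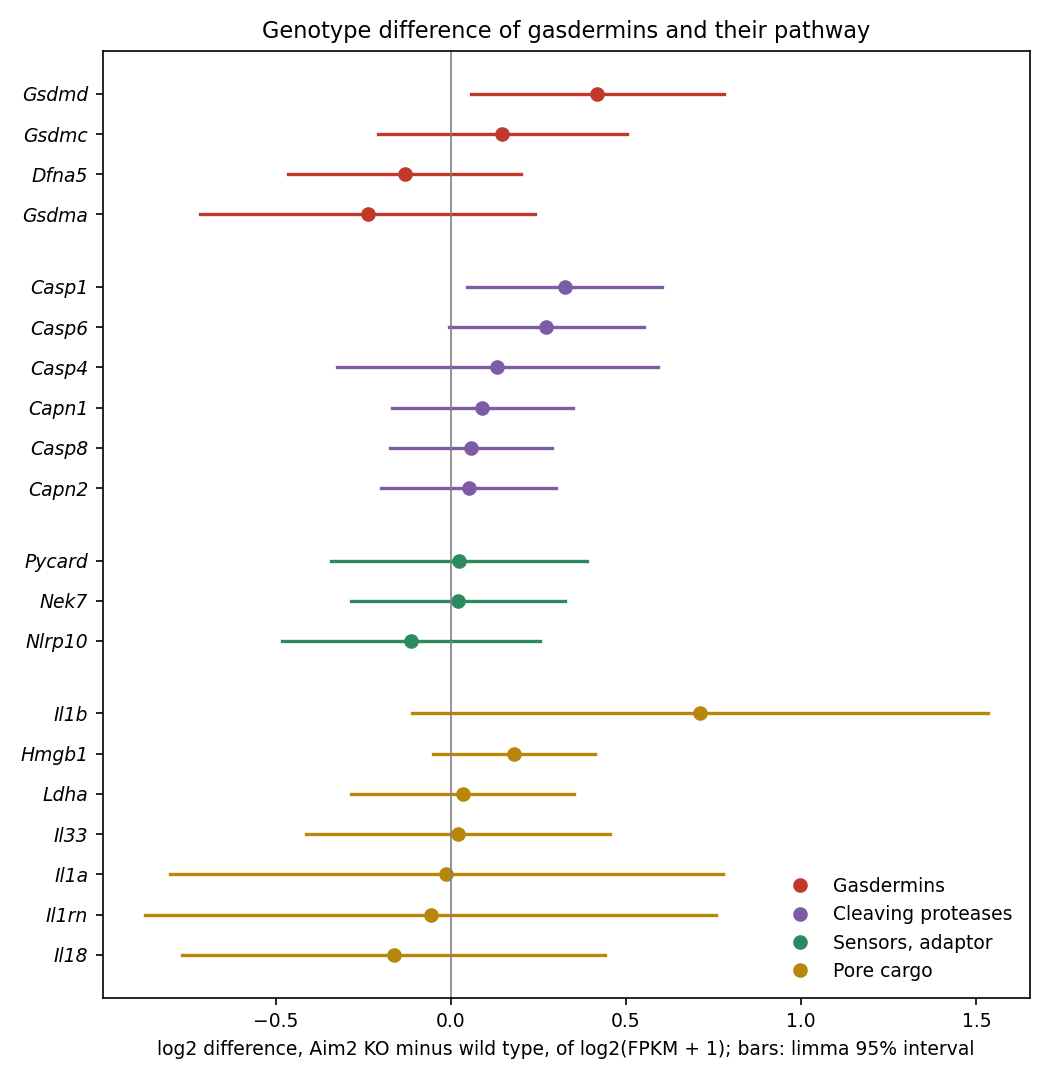
Log2 difference, Aim2 KO minus wild type, of log2(FPKM + 1) (horizontal axis) for the tested gasdermins, 6 of the cleaving proteases, sensors and adaptor, and pore cargo (rows, coloured by list), with limma 95% intervals as bars. Pore cargo here includes proteins released on lysis. Gsdmd and Casp1 have intervals above 0 before adjustment, at differences of 0.42 and 0.32, and the 6 proteases shown lie right of 0.

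Gsdmd is expressed by leukocytes, and pan-leukocyte markers lay higher in Aim2 KO, as Gsdmd did. Of 10 pan-leukocyte markers 10 had log2 differences above 0 (median 0.70), against 57.2% of all genes tested. In every Aim2 KO library 8 of them lay above wild type, against 4.98% of all genes. Among these 8, Rac2 and Ptprc reached the mean of 1 FPKM only through Aim2 KO, with wild type means of 0.569 and 0.993 FPKM. Of the 10 markers 0 passed the threshold and 0 were at 0 in all libraries. Their summed level was 57.8 to 83.6 FPKM in Aim2 KO tongues and 33.8 to 39.3 FPKM in wild type. By their mean log2 level, Aim2 KO replicates 3, 2 and 1 were highest, in that order, followed by wild type replicate 2. Gsdmd ranked these 4 libraries in the same order. Wild type replicates 1 and 3 were level in markers (1.93 each), with Gsdmd at 1.53 and 1.35 FPKM. Macrophage and neutrophil markers ordered the libraries differently. The mean macrophage level was lowest in Aim2 KO replicate 1 (2.61), against 2.71 to 2.99 in wild type. It was 3.59 and 3.58 in Aim2 KO replicates 2 and 3. The mean level of the 3 tested neutrophil markers was highest in Aim2 KO replicate 1 (8.64) and lowest in Aim2 KO replicate 3 (5.95). The part of leukocytes in the Gsdmd difference was not tested. Without Aim2 KO replicate 1, the library poor in muscle markers, the Gsdmd log2 difference was 0.53 (limma unadjusted p = 0.00635, adjusted p = 0.343). Over the 6 fits that leave out 1 library each it ran from 0.33 to 0.53. Its unadjusted limma p was above 0.05 in 4 of them, at 0.0726 without Aim2 KO replicate 2, 0.101 without Aim2 KO replicate 3, 0.0748 without wild type replicate 1 and 0.0929 without wild type replicate 3.

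Markers of differentiated oral epithelium mostly had lower means in Aim2 KO, as Gsdma did. Of 16 such markers 13 had log2 differences below 0 (median -0.14), where 57.2% of all genes tested were above 0, and 2 were below wild type in every Aim2 KO library, against 1.48% of all genes. Of these markers 0 passed the threshold and 0 were at 0 in all libraries. Their summed level was 31047 to 35466 FPKM in Aim2 KO tongues and 31616 to 37372 FPKM in wild type. Wild type replicate 1 had the highest mean marker level and the highest Gsdma, and Aim2 KO replicate 3 the lowest of both. The order in between differed, as wild type replicate 3 was above Aim2 KO replicate 1 in markers but below it in Gsdma. The same held for wild type replicate 2 beside Aim2 KO replicate 2. With the mean marker level as a covariate the Gsdma log2 difference turned from -0.24 to 0.18, that of Gsdmc became 0.45 and that of Gsdmd 0.16, with 0 of the 4 members past the threshold (limma adjusted p = 0.182 to 0.671). The mean marker level was itself lower in Aim2 KO on average (8.76 against 8.96 in wild type). Over 6 libraries this fit cannot cleanly separate that level from genotype, and the part of epithelial makeup in these differences was not tested.

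**Figure D4:**
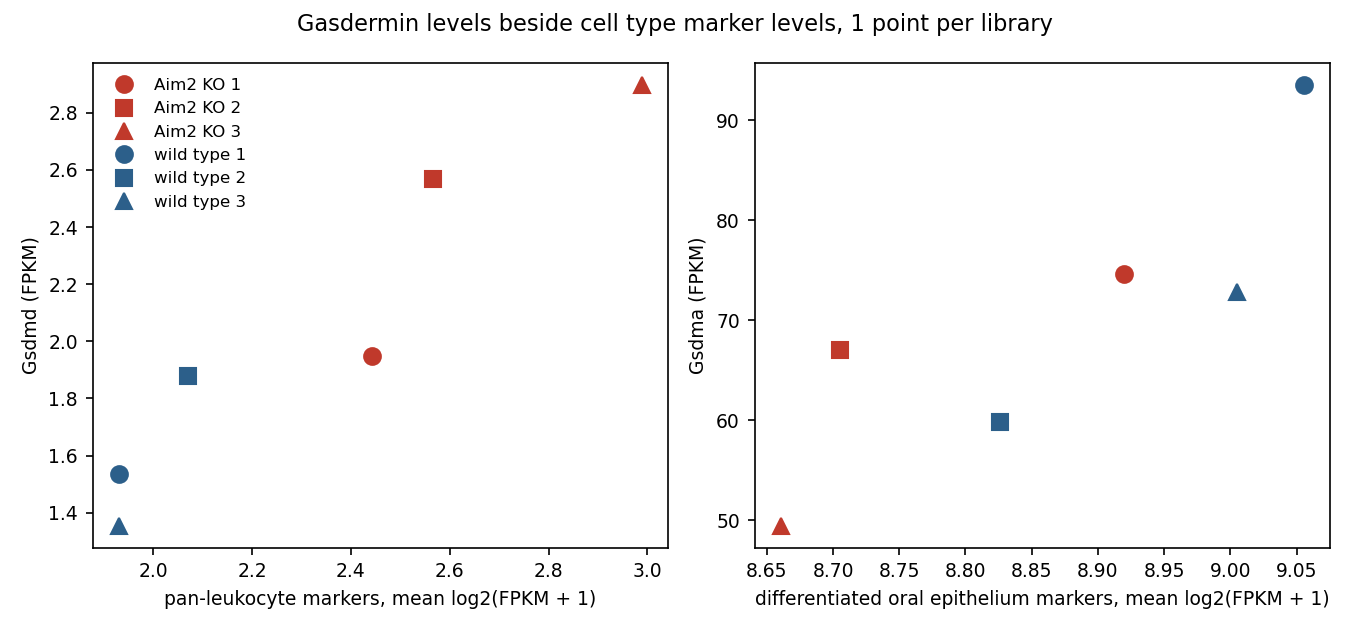
Left, Gsdmd (FPKM) against the mean log2(FPKM + 1) of 10 pan-leukocyte markers, and right, Gsdma (FPKM) against that of 16 differentiated oral epithelium markers, with 1 point per library, colours for genotype and shapes for replicate number. Aim2 KO replicate 3 is at the upper right on the left, with 2.90 FPKM of Gsdmd, and at the lower left on the right, with 49.5 FPKM of Gsdma.

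The genes whose log2 levels followed each tested member most closely over the 6 libraries are given as a description, since a correlation over so few libraries is high for many genes. Gsdmd was followed by Igtp, Cd274 and Irf8 (Pearson r = 0.991, 0.990 and 0.989), and 162 named genes had an r above 0.9 with it. Gsdmc was followed by Areg (r = 0.997), Aldh3b2 (0.986) and Ormdl2 (0.982), with 142 genes above 0.9. Gsdma was followed by Cisd2, Ppif and Sh3bp5l (0.979, 0.979 and 0.975), with 67 genes above 0.9, and Dfna5 by Map3k4, Mylip and Nav1 (0.981, 0.979 and 0.977), with 32. Between members, r was 0.63 for Gsdma with Gsdmc, -0.73 for Gsdma with Gsdmd and -0.77 for Gsdmc with Dfna5.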

How the data were processed

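Tongue RNA of 3 Aim2 KO and 3 wild type libraries was measured by bulk RNA sequencing, with libraries built by a sequencing company per the labels' protocols. The FPKM values were deposited by the authors for 35275 genes, 1 column per library. For the aligner, counter and build: not given in the sources used here. The coordinates of 7 of the 9 members equal those of GENCODE M21 (GRCm38), and coordinates are printed as deposited. FPKM times gene length came in equal steps in each library, and dividing by the step gave whole reads for 100% of non-zero values (tolerance 0.01).

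Genotypes were compared with limma 3.58.1 (R 4.3.3) using moderated variances with a trend. Values were log2(FPKM + 1), and 12144 genes averaging 1 FPKM or more entered, two-sided, with Benjamini-Hochberg adjustment at 0.05. Members below that mean were described by reads, with exact binomial intervals and exact permutation tests. The limma code was run on simulated data with larger changes than those of the gasdermins. That run checks the code and does not measure its power for the differences given here. The 6 pathway lists and 14 marker lists (198 of 204 entries matched by symbol) are described by counts and medians. The members and lists were chosen with earlier results of these data known. Named genes were all members, for each list up to 4 genes of smallest p and 10 fixed pathway genes, the nearest tested neighbours, and the 3 genes most correlated with each tested member. Gzmb, Irf2 and Krt13 were added after their values were seen, as were the ratios between members. Copies were compared with Biopython 1.88 on GENCODE M21 transcripts in windows of 50 bases. Alternatives were other pseudocounts and filters, median-of-ratios and TPM scaling, other variance models, array quality weights, voom on the recovered reads, a replicate block, muscle or epithelium marker covariates and leaving out each library. Some genes that the rule would name are not reported here.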

Additional observations from a re-analysis of the deposited data

How the results depend on the processing

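None of the 4 tested gasdermins passed the threshold under any of 19 alternatives (0 each). Over these, the log2 difference of Gsdmd ran from 0.16 to 0.63 (14 of 19 with an unadjusted limma p under 0.05, adjusted p 0.0995 or more) and that of Dfna5 from -0.24 to -0.07. Gsdma turned to 0.18 with the differentiated epithelium covariate and Gsdmc to -0.039 with array quality weights, and otherwise both kept their sign. Leaving out 1 library gave -0.39 to -0.07 for Gsdma (nearest 0 without Aim2 KO replicate 3 or wild type replicate 1), 0.04 to 0.26 for Gsdmc (lowest without Aim2 KO replicate 1, highest without wild type replicate 1), 0.33 to 0.53 for Gsdmd and -0.23 to -0.07 for Dfna5. With array quality weights Gsdma was at -0.54 (limma unadjusted p = 0.0135, adjusted p = 0.270). The count over all genes, 1 in the test as reported, was 0 with no filter, with a filter at 0.1 FPKM, after rescaling to TPM and with the replicate block, 10 with the skeletal muscle covariate, 68 with array quality weights, and 0 to 14 when 1 library was left out (14 without Aim2 KO replicate 1). Genes of the pathway lists numbered 0, and 2 with array quality weights. The causes were not tested. Same-numbered libraries deviated together with r = 0.35, 0.46 and 0.03, and not each correlated best with its own number, so the numbers were not taken as pairs. Pseudocounts, median-of-ratios scaling, variance models and voom on recovered reads changed no call of a member. Gsdmd rests on 61 to 114 reads per library and the 5 scarce members on at most 10.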

Other observations

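The remaining gasdermin relatives in the table were also near 0. Dfnb59, which encodes pejvakin of the inner ear, had 2 reads in Aim2 KO replicate 2, 2 reads in wild type replicate 1 and 0 in the other 4 libraries. The pseudogenes Gsdmcl1 and Gsdmcl2, which lie between the Gsdmc copies, had 0 reads in each library, and Gsdmcl-ps had 1 read in Aim2 KO replicate 3 and 0 in the others.

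The other marker lists gave these counts of tested genes, with 0 past the threshold in each. For comparison, 57.2% of all genes tested had log2 differences above 0, with a median of 0.02. Macrophage markers had log2 differences above 0 for 7 of 8 (median 0.39), endothelial for 6 of 6 (0.08), fibroblast for 6 of 7 (0.06), basal epithelium for 5 of 8 (0.04), and simple and glandular epithelium for 5 of 9 (0.08). Neutrophil markers were above 0 for 0 of 3 (median -0.54), skeletal muscle for 1 of 11 (-0.22), filiform papilla hair keratins for 1 of 5 (-0.23), adipocyte for 0 of 4 (-0.19), Schwann for 2 of 5 (-0.06) and sebaceous for 1 of 2 (-0.02). The neutrophil sign depended on the log scale. Mean FPKM was 1291 in Aim2 KO against 1234 in wild type for S100a8, and 1601 against 1487 for S100a9. Aim2 KO replicate 1 alone had 3040 and 3745 FPKM of these genes. Mmp9 had 1.93 against 2.24 FPKM. Ly6g, Retnlg, Csf3r and Cxcr2 were under the mean of 1 FPKM, and their Aim2 KO means were not below those of wild type. Of 9 T and cytotoxic markers 2 had a mean of at least 1 FPKM, Cd3g and Trac. Trac reached it only through Aim2 KO, so no count or median is given for that list.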
